A study of Mus musculus with 4 samples.

Results

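Red blood cells are built by a small set of transcription factors, a mitochondrial pathway that makes heme, proteins that bring iron into the cell, and a membrane skeleton with its surface proteins. The genes described here are 37 mouse genes from these groups, chosen by name from a list of erythroid regulators, heme synthesis enzymes, iron handling proteins and red cell membrane proteins. They are 37 of the 30142 genes that the array names through a probe set with exactly 1 gene symbol. All 37 were measured, each by 1 such probe set.

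Expression was read on 4 arrays of Lin- c-Kit+ hematopoietic progenitors (LK cells) of NOD mice, a strain that develops autoimmune diabetes. The combo group held 2 samples, replicates 1 and 2, kept for 4 h at 37 °C in StemSpan medium with dmPGE2 (10 µM) and dexamethasone (10 µM) together. The first is a prostaglandin E2 derivative made to resist breakdown, and dexamethasone is a synthetic glucocorticoid. The vehicle group held 2 samples, replicates 1 and 2, kept for the same time at the same temperature with DMSO alone. For the mice, the labels state neither age nor sex nor how many stand behind a sample. All samples share the strain and the LK gate, which keeps c-Kit-positive cells that lack mature lineage markers and thus mixes stem cells with early progenitors of several blood lineages. The drugs were given only together, so neither drug's own part can be told apart.

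In the bone marrow, progenitors committed to the red lineage depend on Gata1 with its partners and, from a given stage on, on erythropoietin. Heme is made from glycine and succinyl-CoA, starting with aminolevulinate synthase in the mitochondrion and ending there with the insertion of iron by ferrochelatase. Iron enters through the transferrin receptor, and the iron regulatory proteins Aco1 and Ireb2 bind messenger RNAs of iron genes, among them those of the receptor and of ferritin, when iron is scarce.

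Values are log2 signals, so a difference of 1 is a 2-fold change, and each difference is combo minus vehicle. All 37 genes lay above the highest single background probe set (5.55) on every array, the lowest value being 6.20. Kit, the receptor of the gate, had signals of 10.51 and 9.62 in combo cells and of 10.18 and 10.32 in vehicle cells. Of 14 measured lymphoid marker genes, 3 lay above 5.55 on every array, and the T cell gene Cd3e stayed between 3.72 and 4.08. Il7r of the same list had 7.24 and 8.21 in combo cells and 5.44 and 6.03 in vehicle cells. Of the 14 genes, 7 had lower and 7 higher mean signals in combo cells. All 6 genes listed as targets of glucocorticoids or cyclic AMP (Tsc22d3, Per1, Fkbp5, Dusp1, Crem and Irs2) had higher signals on both combo arrays than on both vehicle arrays, by 1.14 to 2.68. These 6 were listed with earlier results of these data known. Both combo arrays lay above both vehicle arrays for 20.4% of all features and for 15.1% of those with a mean above 5.55.

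Signals of the erythroid, heme and iron genes were mostly lower in combo than in vehicle cells, and none of the 37 differences passed limma's test. The difference was below 0 for 32 genes and above 0 for 5, with a median of -0.30. Over all named genes the median was 0.01, and over the 12615 named genes with a mean above the background limit it was -0.05. Of these 12615 genes, the difference was below 0 for 7608 and above 0 for 5007. No gene had an adjusted p under 0.05 (limma with Benjamini-Hochberg over all 65956 features), the lowest being 0.49 for Tfrc, where 0.00303% of all features and 0.00913% of those with a mean above the background limit passed. At an unadjusted limma p under 0.05 there were 5 genes, all with lower combo signals: Tfrc, Alas1, Hemgn, Slc25a38 and Zfpm1. They make 13.5% of the 37, against 2.44% of all features past that limit in the same direction and 4.98% of the features with a mean above the background limit. In these bulk samples, fewer cells of a type and less RNA per cell cannot be told apart.

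The median moved with single arrays. Without the vehicle 1 array it was 0.0093, and without the vehicle 2 array -0.69. Without combo 1 the median was -0.45, and without combo 2 it was -0.13. Each of these fits leaves 1 array in a group, so no count of genes under a p limit is given for them. For Tfrc, Alas1, Hemgn, Slc25a38 and Zfpm1, both combo arrays lay below both vehicle arrays, so leaving out 1 array could not turn the sign.

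Both combo arrays lay below both vehicle arrays for 11 genes, or 29.7% of the 37, against 13.9% of all features and 19.7% of those with a mean above the background limit. Both lay above for Fth1 and Aco1, or 5.41%, against 20.4% of all features and 15.1% of the brighter ones. For Fth1 the groups were barely apart, with combo 2 at 9.041 and vehicle 1 at 9.039. The groups overlapped for the other 24 genes. Within the replicate numbers, 25 genes were lower in combo for both (67.6% of the 37, against 23.4% of all features and 33.8% of the brighter ones) and 3 were higher for both (8.11%, against 31.0% and 24.8%). The other 9 genes differed in sign between the numbers. The median difference was -0.45 for number 1 and -0.14 for number 2.

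**Figure D1:**
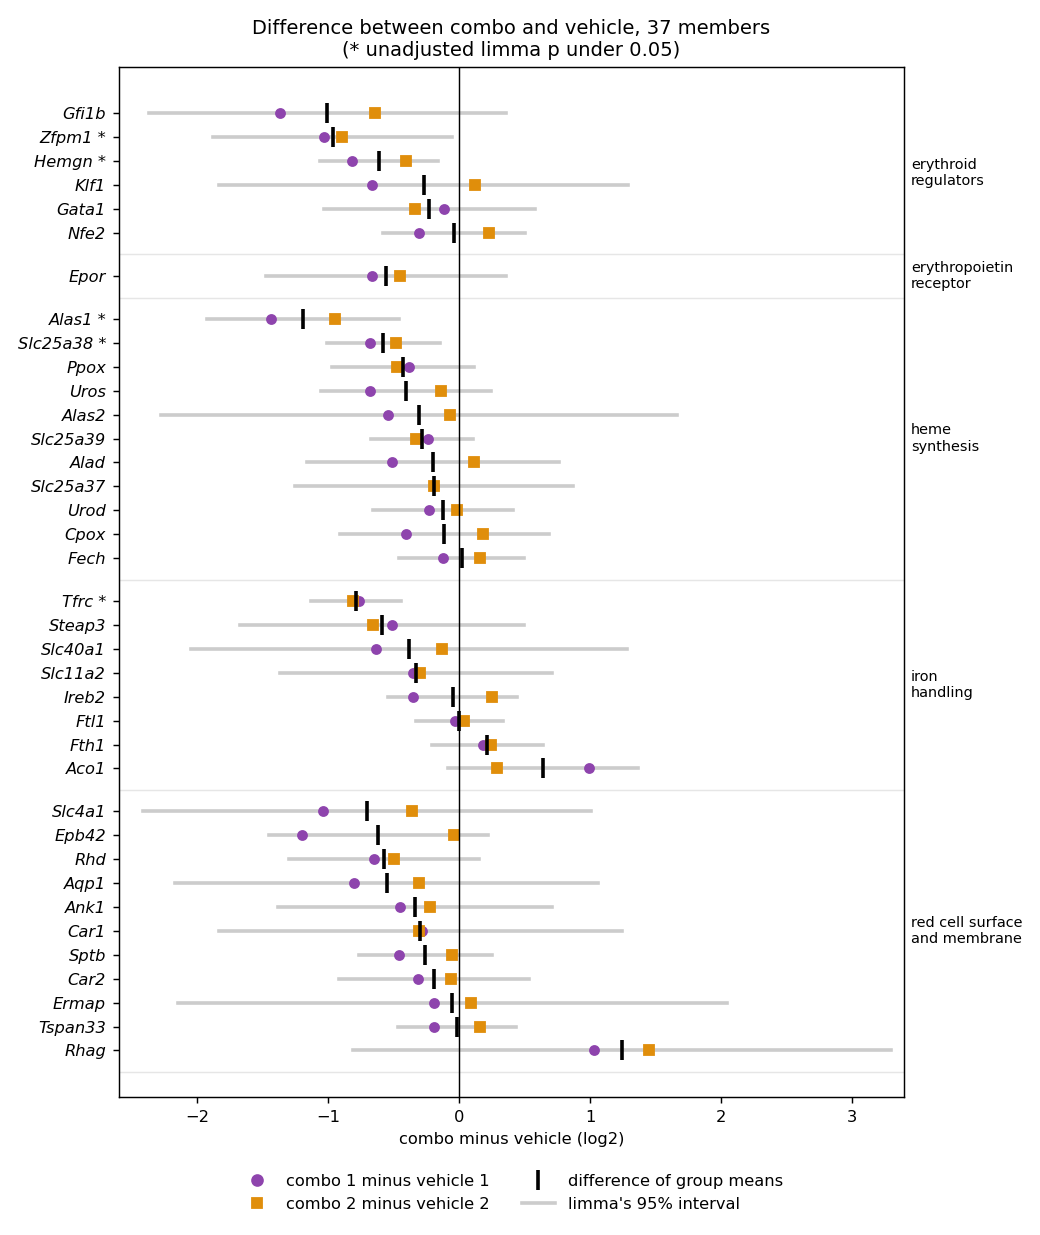
Difference between combo and vehicle (log2, x axis) for each of the 37 genes, grouped by role. Circles and squares are the differences within replicate numbers 1 and 2, black ticks the differences of the group means and grey bars limma's 95% intervals. Of the 37 intervals, 5 lie wholly below 0, those of Zfpm1, Hemgn, Alas1, Slc25a38 and Tfrc, and none lies above it.

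The 130 bases before the transcription start of 6 genes are printed. The results turn on Tfrc, Alas1 and Hemgn, and Alas2, Rhd and Rhag belong to the same pathways. The combo and vehicle groups overlapped for Alas2 and Rhag. For Rhd, both combo arrays lay below both vehicle arrays, as for Tfrc, Alas1 and Hemgn. Its limma p was 0.096, against 0.018 for Hemgn. The printed bases are RefSeq sequences of assembly GRCm38.p6, given 5′ to 3′ on the strand of the gene. Tfrc and Alas1 have 2 listed starts, of which the first is used. Capitals mark a match to the GATA motif (AGATAA and AGATAG, together with TGATAA and TGATAG, on either strand), the letters that Gata1 is known to bind.
Tfrc, chr16:32608766-32608895, plus strand: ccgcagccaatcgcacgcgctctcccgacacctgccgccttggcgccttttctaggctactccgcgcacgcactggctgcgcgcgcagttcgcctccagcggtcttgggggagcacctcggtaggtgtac
Alas1, chr9:106247955-106248084, minus strand: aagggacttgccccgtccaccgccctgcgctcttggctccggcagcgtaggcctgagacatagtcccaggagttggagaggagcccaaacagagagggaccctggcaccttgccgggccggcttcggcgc
Hemgn, chr4:46404184-46404313, minus strand: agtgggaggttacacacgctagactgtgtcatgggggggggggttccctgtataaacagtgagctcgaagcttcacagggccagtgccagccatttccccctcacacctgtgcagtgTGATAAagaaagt
Alas2, chrX:150547287-150547416, plus strand: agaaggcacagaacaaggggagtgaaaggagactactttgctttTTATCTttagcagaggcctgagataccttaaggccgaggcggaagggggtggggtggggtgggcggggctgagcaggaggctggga
Rhd, chr4:134864406-134864535, plus strand: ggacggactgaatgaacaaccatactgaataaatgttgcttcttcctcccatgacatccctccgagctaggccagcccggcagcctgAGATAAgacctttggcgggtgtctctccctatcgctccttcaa
Rhag, chr17:40811019-40811148, plus strand: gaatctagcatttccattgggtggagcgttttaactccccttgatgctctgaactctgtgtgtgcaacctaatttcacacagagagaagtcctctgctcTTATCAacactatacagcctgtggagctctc
The match began 13 bases before the start in Hemgn, 86 in Alas2, 43 in Rhd and 31 in Rhag, and no match was in the 250 bases before the starts of Tfrc and Alas1. Promoter sequences were found for 28 of the 37 genes, and 12 of them (42.9%) held the motif within 250 bases before a start, against 29.7% of 27025 genes. The 12 were Klf1, Gfi1b, Hemgn, Epor, Alas2, Uros, Cpox, Steap3, Rhd, Rhag, Ermap and Epb42. In the same windows, on both strands, 0 of 28 genes held CCACACCC, the core of the box Klf1 binds (3.68% of all genes), 0 held the cyclic AMP response element TGACGTCA (1.77%) and 0 held the palindromic glucocorticoid response element (0.44%). A match describes the letters only.

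The 6 erythroid regulators all had lower mean signals in combo cells, with a median difference of -0.44, and 2 of them, Zfpm1 and Hemgn, were under an unadjusted p of 0.05. Zfpm1, which encodes the Gata1 cofactor FOG1, had signals of 9.43 and 8.81 in combo cells and of 10.47 and 9.71 in vehicle cells. Both combo values lay below both vehicle values. The difference was -0.97 (SE 0.35, 95% interval -1.88 to -0.05), or 1.95-fold lower, with a limma p of 0.042 and an adjusted p of 0.89. With the control rows of the array kept in the fit, Zfpm1 was no longer under an unadjusted p of 0.05, and without the vehicle 1 array its difference was -0.59.

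Hemgn encodes hemogen, a nuclear protein of hematopoietic cells, and had signals of 9.91 and 9.98 in combo cells, against 10.73 and 10.38 in vehicle cells. The groups did not overlap, and the 2 combo arrays were 0.07 apart. Its difference of -0.61 (SE 0.17, interval -1.06 to -0.16), or 1.53-fold, had a limma p of 0.018 and an adjusted p of 0.80. Its promoter holds the GATA match closest to the start among the 4 matches printed above.

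Gfi1b, a transcriptional repressor needed for red cells and platelets, had signals of 12.41 and 11.77 in combo cells and of 13.78 and 12.41 in vehicle cells. The higher combo value and the lower vehicle value were level, so the groups touched, and the vehicle arrays alone were 1.37 apart. The difference was -1.01 (SE 0.52, interval -2.37 to 0.35), or 2.01-fold, with a limma p of 0.11 and an adjusted p of 0.93. It was -0.32 without vehicle 1, -0.68 without combo 2 and -1.69 without vehicle 2.

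Gata1 itself, the central transcription factor of the red and platelet lineages, had signals of 6.90 and 6.20 in combo cells and of 7.02 and 6.54 in vehicle cells. The groups overlapped, and the difference was -0.23 (SE 0.31, interval -1.04 to 0.58; limma p of 0.49 and adjusted p of 0.97). Klf1, the factor that switches on adult beta globin, had 10.86 and 10.08 in combo cells and 11.53 and 9.96 in vehicle cells. Here the number 1 combo array lay below its vehicle counterpart and the number 2 combo array above. The difference was -0.27 (SE 0.59, interval -1.83 to 1.29; limma p of 0.67 and adjusted p of 0.99). For both Gata1 and Klf1 the sign turned without the combo 2 array (0.12 for each) and without the vehicle 1 array (0.0093 and 0.51). Nfe2, which encodes a subunit of a globin enhancer-binding factor, differed by -0.04 with values between 8.55 and 9.04 on all arrays.

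Epor, the erythropoietin receptor, had signals of 8.55 and 7.97 in combo cells and of 9.22 and 8.42 in vehicle cells. It was lower in combo within both replicate numbers, by -0.66 and -0.45, but the higher combo value lay above the lower vehicle value. The difference was -0.56 (SE 0.35, interval -1.48 to 0.36), or 1.47-fold, with a limma p of 0.17 and an adjusted p of 0.94. It was -0.85 without combo 1, -0.27 without combo 2, -0.16 without vehicle 1 and -0.96 without vehicle 2.

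**Figure D2:**
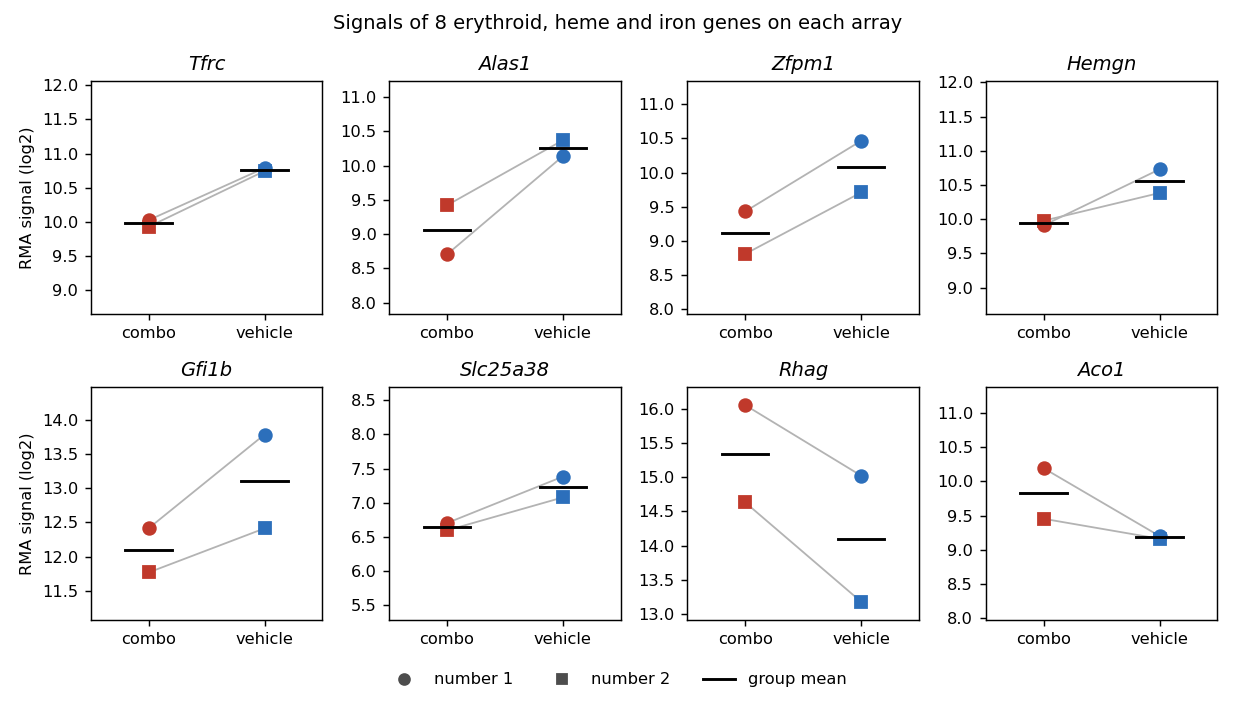
Log2 signal (y axis, of the same span in each panel) of 8 genes on each array, with combo on the left and vehicle on the right. Circles are replicate 1, squares replicate 2, grey lines join equal replicate numbers and black bars are group means. Tfrc, Alas1, Zfpm1, Hemgn and Slc25a38 are lower and Aco1 is higher on both combo arrays than on both vehicle arrays, while the groups of Gfi1b and Rhag overlap.

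Among the 11 heme synthesis genes, 10 had lower mean signals in combo cells and 1 a higher one, with a median difference of -0.28. The largest difference in size was that of Alas1, the aminolevulinate synthase that most tissues use for the first and rate-limiting step. Alas1 had signals of 8.70 and 9.42 in combo cells, against 10.14 and 10.37 in vehicle cells. The higher combo array was still 0.72 below the lower vehicle array. The difference was -1.19 (SE 0.28, interval -1.93 to -0.46), or 2.29-fold lower, with a limma p of 0.0094 and an adjusted p of 0.70.

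Alas2, the enzyme of the same step in red cell precursors, behaved otherwise on the 4 arrays. It had signals of 7.62 and 9.42 in combo cells and of 8.16 and 9.49 in vehicle cells, so the arrays numbered 2 were higher in both groups. The difference of -0.31 (SE 0.75, interval -2.28 to 1.67; limma p of 0.70 and adjusted p of 0.99) was smaller than the distance between replicates of either group. Its sign turned without the combo 1 array (0.59) and without the vehicle 2 array (0.36). The difference between the Alas1 and Alas2 responses was not tested.

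Slc25a38, the mitochondrial carrier that brings in glycine for this step, had signals of 6.70 and 6.60 in combo cells and of 7.38 and 7.08 in vehicle cells. The groups did not overlap. The difference was -0.58 (SE 0.16, interval -1.01 to -0.15), or 1.50-fold lower, with a limma p of 0.019 and an adjusted p of 0.80. The other mitochondrial carriers in the set are Slc25a39, which imports glutathione, and Slc25a37, mitoferrin 1, which imports iron. Slc25a39 was lower on both combo arrays than on both vehicle arrays (difference -0.28, limma p of 0.12), and Slc25a37 differed by -0.19 within each replicate number while its replicates were 0.82 apart in both groups.

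The enzymes of the later steps had differences between -0.43 and 0.02, all with a limma p above 0.05. Alad, which forms porphobilinogen, differed by -0.20, and Uros, which closes the ring as uroporphyrinogen III, by -0.41 with both combo arrays below both vehicle arrays. Urod and Cpox, the decarboxylase and the oxidase that follow, differed by -0.12 and -0.11. Ppox, the enzyme that makes protoporphyrin, differed by -0.43 (SE 0.21, limma p of 0.097), again with both combo arrays below. Fech, ferrochelatase, which inserts the iron, differed by 0.02 (interval -0.46 to 0.50) and was the 1 heme synthesis gene with a higher combo mean. The interval of Fech excludes a 2-fold difference in either direction, as does that of Urod (-0.65 to 0.41).

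The 8 iron handling genes did not share a direction: 5 had lower and 3 higher mean signals in combo cells, with a median of -0.19. Tfrc, the transferrin receptor through which red cell precursors take up iron, had the smallest p of the 37 genes. Its signals were 10.03 and 9.93 in combo cells and 10.79 and 10.74 in vehicle cells. Replicates were 0.10 apart in combo and 0.05 apart in vehicle, and the groups did not overlap. The difference was -0.79 (SE 0.13, interval -1.13 to -0.45), or 1.73-fold lower, with a limma p of 0.0023 and an adjusted p of 0.49. It stood between -0.84 and -0.74 with any 1 array left out.

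Steap3, the reductase that prepares iron for leaving the endosome, had signals of 7.50 and 6.59 in combo cells and of 8.01 and 7.25 in vehicle cells, and the groups overlapped (difference -0.59, SE 0.41, interval -1.67 to 0.50; limma p of 0.22 and adjusted p of 0.95). With 1 array left out it lay between -1.04 (combo 1 left out) and -0.13 (combo 2), with -0.21 without vehicle 1 and -0.97 without vehicle 2. Slc11a2, the transporter DMT1 that carries it out of the endosome, had 8.10 and 7.33 in combo cells and 8.45 and 7.63 in vehicle cells. Its groups overlapped as well (difference -0.33, SE 0.39, interval -1.37 to 0.71; limma p of 0.45 and adjusted p of 0.97). Slc40a1, the iron exporter ferroportin, had 8.35 and 7.30 in combo cells and 8.99 and 7.43 in vehicle cells. In each group the array numbered 1 was higher by more than 1, and the difference was -0.38 (SE 0.63, interval -2.05 to 1.28; limma p of 0.57 and adjusted p of 0.98). The sign of Slc11a2 turned without combo 2 (0.059) and without vehicle 1 (0.086), and so did that of Slc40a1 (0.14 and 0.39).

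Aco1, which encodes iron regulatory protein 1, was the iron gene with the largest positive difference. It had signals of 10.19 and 9.46 in combo cells and of 9.20 and 9.16 in vehicle cells. Both combo arrays lay above both vehicle arrays, the one numbered 1 by more. The difference was 0.64 (SE 0.27, interval -0.08 to 1.37), or 1.56-fold higher, with a limma p of 0.071 and an adjusted p of 0.91. It was 0.27 without combo 1 and 1.01 without combo 2. Ireb2, iron regulatory protein 2, differed by -0.05 (interval -0.54 to 0.45), with opposite signs in the 2 replicate numbers.

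Fth1, the ferritin heavy chain, had signals of 9.22 and 9.04 in combo cells and of 9.04 and 8.80 in vehicle cells. The lower combo value (9.041) and the higher vehicle value (9.039) were nearly level. Each combo array was slightly above its vehicle counterpart, by 0.18 and 0.25, and the difference was 0.22 (SE 0.16, interval -0.21 to 0.64; limma p of 0.24 and adjusted p of 0.95). It was 0.12 without combo 1, 0.34 without vehicle 1 and 0.094 without vehicle 2. Ftl1, the light chain, lay between 15.14 and 15.18 on all 4 arrays and had an interval of -0.33 to 0.33. Ferritin genes have many near-identical processed copies in the genome, so the origin of both signals is uncertain.

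Of the 11 red cell surface and membrane genes, 10 had lower mean signals in combo cells and 1 a higher one, with a median of -0.30 and none under an unadjusted p of 0.05. The exception was Rhag, the Rh-associated glycoprotein, which the Rh complex needs to reach the membrane. It had signals of 16.05 and 14.63 in combo cells and of 15.02 and 13.18 in vehicle cells. Combo was higher within both replicate numbers, by 1.03 and 1.45, but vehicle 1 lay above combo 2. The difference of 1.24 (SE 0.78, interval -0.81 to 3.30), or 2.36-fold higher, was the largest positive one of the 37 genes and had a limma p of 0.18 and an adjusted p of 0.94. It was 0.53 without combo 1, 1.95 without combo 2, 2.16 without vehicle 1 and 0.32 without vehicle 2.

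Rhd, which encodes the Rh protein that assembles with Rhag, had signals of 10.07 and 9.63 in combo cells and of 10.72 and 10.12 in vehicle cells. Its direction was opposite to that of Rhag, with both combo arrays below both vehicle arrays. The difference was -0.57 (SE 0.27, interval -1.30 to 0.15; limma p of 0.096 and adjusted p of 0.93), and it was -0.28 without vehicle 1, -0.35 without combo 2 and -0.87 without vehicle 2. The difference between the Rhd and Rhag responses was not tested.

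Slc4a1, the anion exchanger band 3, had signals of 9.75 and 11.41 in combo cells and of 10.79 and 11.77 in vehicle cells. Like Alas2 it was higher on the arrays numbered 2, and its groups overlapped (difference -0.70, SE 0.65, interval -2.41 to 1.01; limma p of 0.33 and adjusted p of 0.96). Epb42, protein 4.2 of the band 3 complex, had 6.95 and 7.76 in combo cells and 8.15 and 7.80 in vehicle cells. The difference of -0.62 (SE 0.32, interval -1.46 to 0.22; limma p of 0.11 and adjusted p of 0.93) came almost wholly from the arrays numbered 1, at -1.20, against -0.04 for number 2, and was -0.21 without combo 1 and -1.02 without combo 2. Aqp1, the water channel, had 13.11 and 12.11 in combo cells and 13.92 and 12.41 in vehicle cells, with overlapping groups (difference -0.55, SE 0.61, interval -2.17 to 1.06; limma p of 0.41 and adjusted p of 0.97). The sign of Slc4a1 turned without combo 1 (0.13) and that of Aqp1 without vehicle 1 (0.20).

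The remaining membrane and cytosolic genes had small differences next to their spread. Sptb, beta spectrin of the membrane skeleton, differed by -0.26 and was lower on both combo arrays. Ank1, ankyrin, which ties that skeleton to band 3, differed by -0.34 with overlapping groups. Car1 and Car2, the carbonic anhydrases of the red cell, differed by -0.30 and -0.19. Ermap, an erythroblast adhesion protein, differed by -0.05, and the tetraspanin Tspan33 by -0.02 (interval -0.47 to 0.44).

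The largest distances in the set lay between replicate numbers within a group. Array 1 was higher than array 2 in both groups for 28 of the 37 genes and lower in both for 4. Of the 12615 named genes with a mean above the background limit, 4780 were higher in both and 3459 lower in both. Without regard to sign, the median distance between replicates was 0.58 in combo and 0.64 in vehicle. Over the 12615 named genes with a mean above the background limit it was 0.23 and 0.22. For 6 of the 37 genes, the distance was at least 1 with the same sign in both groups. That is 16.2% of the 37, against 0.666% of all features and 1.66% of the brighter ones. Rhag (1.42 in combo, 1.84 in vehicle), Ermap (1.53 and 1.81), Car1 (1.23 and 1.21), Slc40a1 (1.05 and 1.56) and Aqp1 (1.01 and 1.51) were higher on array 1. Alas2 was lower there (-1.80 in combo and -1.32 in vehicle), as was Slc4a1 (-1.66 and -0.98).

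Some granulocyte markers also differed between the numbers in both groups, in both directions. Of the neutrophil and granulocyte progenitor list, 6 of 15 genes were higher and 6 lower on array 1 in both groups, and of the mast cell, basophil and eosinophil list 4 of 14 were higher and 6 lower. The largest distances were those of genes higher on array 1. The neutrophil granule genes Ngp, Camp and Ltf were higher on array 1 by 4.19 to 5.05 in combo and by 4.78 to 6.13 in vehicle, and the eosinophil granule genes Epx, Prg2 and Prg3 by 1.51 to 2.39 and by 1.35 to 2.14. Of the granule genes of earlier granulocyte stages, Mpo, Elane and Prtn3 were lower on array 1, at -0.50 to -0.25 in combo and at -0.36 to -0.19 in vehicle. Ctsg was lower there in combo (-0.31) but higher in vehicle (0.08). The mast cell and basophil genes Cpa3, Mcpt8 and Prss34 were lower on array 1, at -0.39 to -0.25 and at -0.65 to -0.39. Ms4a2 of the same list was higher there in both groups (0.18 and 0.15). The median distance of the neutrophil list, with its sign, was -0.14 in combo and 0.08 in vehicle. Without regard to sign it was 0.50 and 0.34. The neutrophil and granulocyte progenitor list (13 of 15 genes above 5.55 on every array, Gfi1 and Ly6g not) had a mean signal of 12.24 on combo 1, 11.39 on combo 2, 12.16 on vehicle 1 and 10.97 on vehicle 2. For the mast cell, basophil and eosinophil list (9 of 14 genes above 5.55 on every array) the means were 8.93 and 8.57 in combo and 8.80 and 8.70 in vehicle. Between combo and vehicle the median differences of these lists were 0.02 and -0.24. At an unadjusted limma p under 0.05, the neutrophil list had 0 lower genes and 1 higher (6.67%), Cxcr2 at 4.32. The mast cell, basophil and eosinophil list had 1 lower (7.14%), Ms4a2 at -0.40, and 2 higher (14.3%), Hdc at 1.71 and Gzmb at 1.53. Of all features 2.44% passed as lower and 3.14% as higher, and of the brighter features 4.98% and 4.57%. The part of these lists in the differences of the erythroid, heme and iron genes was not tested.

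**Figure D3:**
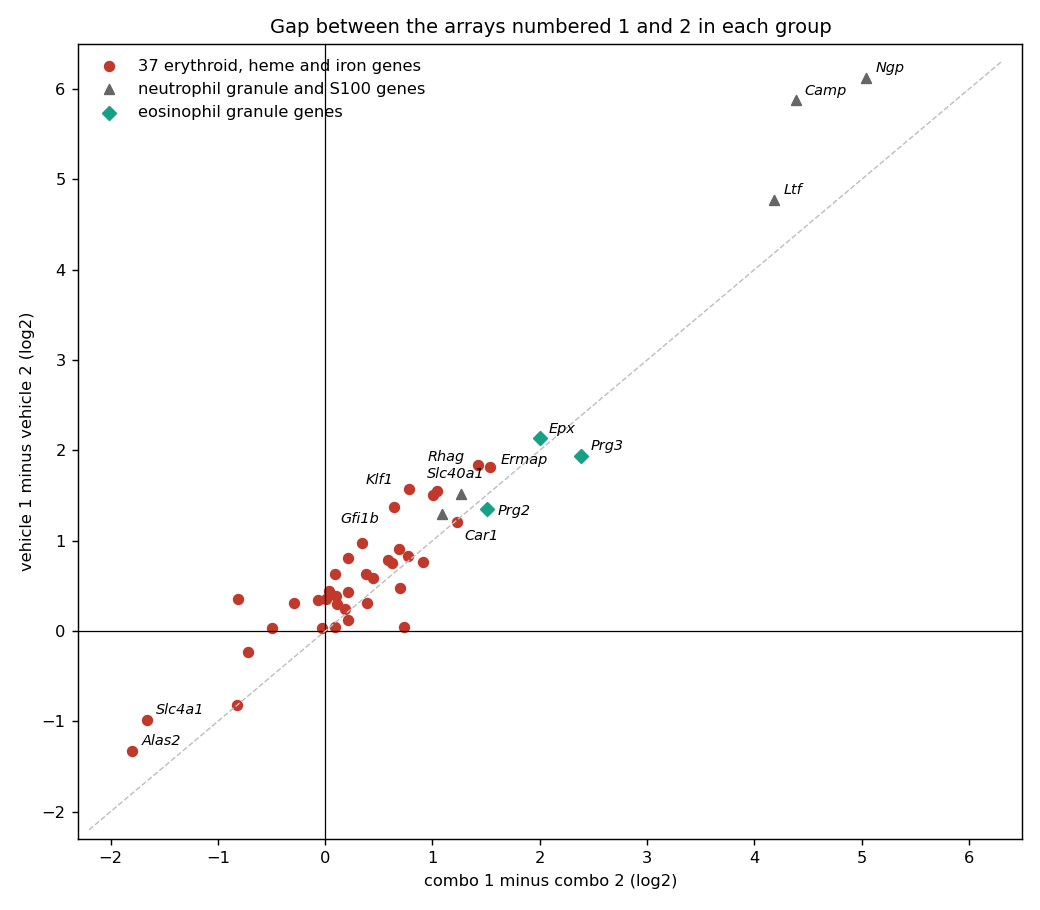
Distance between the arrays numbered 1 and 2 (log2) in combo (x axis) and in vehicle (y axis) for the 37 genes (red circles), 5 neutrophil genes (grey triangles, the 2 without a name being S100a8 and S100a9) and 3 eosinophil granule genes (green diamonds). The dashed line marks equal distances in both groups. Of the 37 genes, 28 lie above 0 on both axes and 4 below 0 on both, and Ngp, Camp and Ltf lie far above all of them.

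Other genes of the same pathways, 93 of 107 listed ones being measured, gave 0 genes past an adjusted limma p of 0.05. Of the 93, 52 had lower and 41 higher mean signals in combo cells, with a median of -0.08, and 9 lower and 4 higher ones were under an unadjusted p of 0.05. Of all features 2.44% were past that limit as lower and 3.14% as higher, and of the brighter features 4.98% and 4.57%. Among 21 further erythroid transcription factors 16 were lower and 5 higher, with a median of -0.29. Lmo2, the bridging protein of the Gata1 and Tal1 complex, had 7.65 and 7.71 in combo cells and 8.34 and 8.20 in vehicle cells (difference -0.59, SE 0.13, limma p of 0.0086, adjusted p of 0.69). Myb, which keeps progenitors dividing, differed by -0.51 (limma p of 0.030) and the cell cycle factor E2f4 by -0.52 (limma p of 0.034). In all 3 both combo arrays lay below both vehicle arrays.

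Globin chains could be followed only in part. Of 12 listed genes 5 had a probe set with 1 gene symbol. Those of the adult alpha and beta chains list several symbols and stayed unnamed. Of these 5, 3 lay above 5.55 on every array, and Hba-x and Hbb-bh1 lay below it on all 4. The median difference was 0.18, the value of Hba-x, and the smallest p was that of Hbq1b, a theta globin, with 8.34 and 8.09 in combo cells and 7.57 and 7.96 in vehicle cells (difference 0.45, limma p of 0.076).

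Among 19 measured genes of heme export, breakdown and its iron-sulfur partners, 10 were lower and 9 higher, with a median of -0.03. Nfs1, the desulfurase that supplies sulfur for iron-sulfur clusters, differed by -0.57 (limma p of 0.026), and the heme transporter Slc48a1 by -0.42 (limma p of 0.043). Of the 24 other iron genes, 8 were lower and 16 higher, with a median of 0.08, but only 11 lay above 5.55 on every array, so the count and the median rest largely on signals near background. The hypoxia-inducible factor gene Hif1a had 11.98 and 12.65 in combo cells and 10.92 and 11.16 in vehicle cells (difference 1.28, SE 0.27, limma p of 0.0062, adjusted p of 0.63). Its relative Epas1 differed by 0.46 (limma p of 0.025) but stayed between 4.11 and 4.69, below the highest background probe set.

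Of 24 other red cell membrane and surface genes, 17 were lower and 7 higher, with a median of -0.33. Cd36, a fatty acid and thrombospondin receptor carried by early red cell precursors and also by monocytes and platelets, had 8.18 and 8.59 in combo cells, against 6.52 and 6.36 in vehicle cells. That difference of 1.95 (SE 0.19, limma p of 0.00025, adjusted p of 0.23) was the largest in these pathway lists. Slc16a1, a lactate and pyruvate carrier, differed by -1.13 (limma p of 0.0029, adjusted p of 0.50). Dmtn, dematin of the membrane skeleton, differed by -0.59 (limma p of 0.0071) and Gypc, glycophorin C, by -0.53 (limma p of 0.012). For all 3, both combo arrays lay below both vehicle arrays. Among 15 measured monocyte and macrophage markers, 5 lower (33.3%) and 3 higher ones (20%) were under an unadjusted limma p of 0.05. Among 12 megakaryocyte markers there was 1 in each direction (8.33% each), Gp5 at -1.04 and Ppbp at 5.52. Of all features 2.44% were past that limit as lower and 3.14% as higher, and of the brighter features 4.98% and 4.57%. The part of these lists in the Cd36 difference was not tested.

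**Figure D4:**
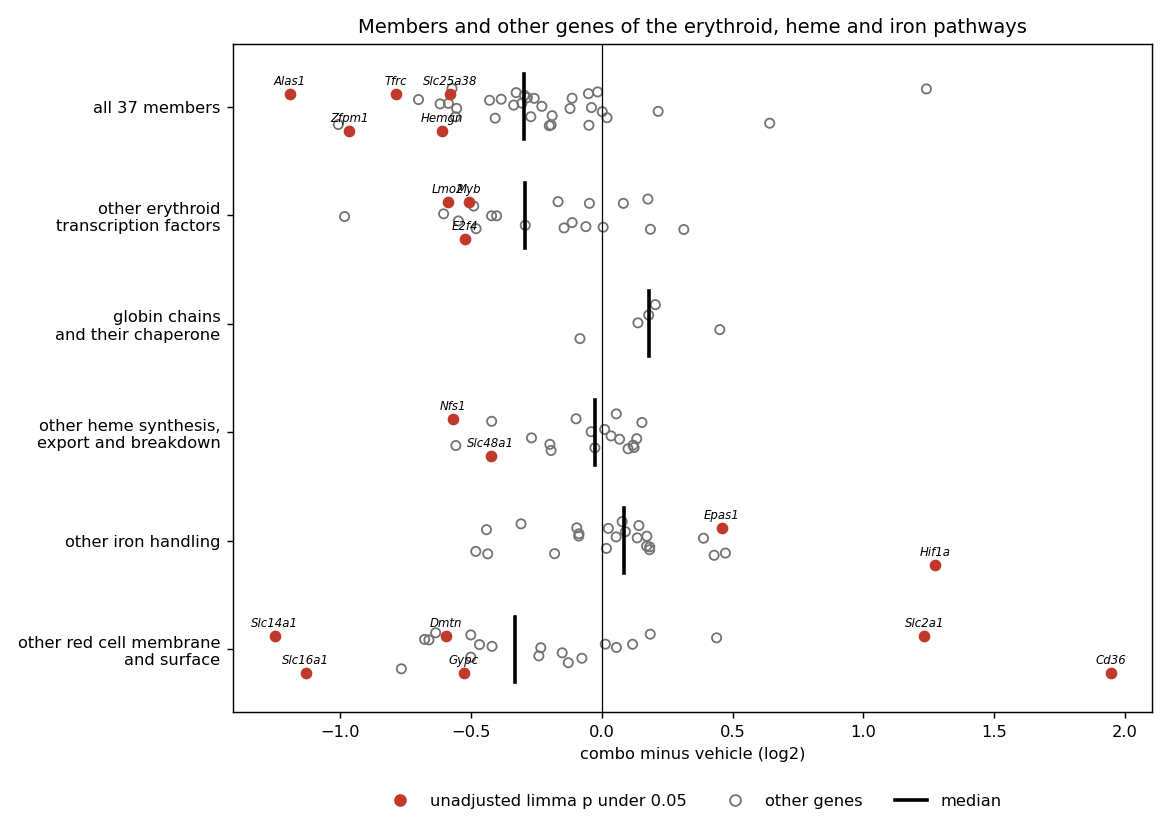
Difference between combo and vehicle (log2, x axis) for the 37 genes and for 5 lists of other genes of the same pathways (rows, with a vertical scatter that has no meaning). Each point is a gene, filled and named where its unadjusted limma p was under 0.05, and black bars are medians. The medians of the 37 genes, of the other transcription factors and of the other membrane genes lie between -0.33 and -0.29, and those of the other 3 lists between -0.03 and 0.18.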

How the data were processed

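The authors deposited 1 table of log2 signals. RMA and the Transcriptome Analysis Console are named in the submitters' processing notes, and no version or build was given in the sources used here. This normalization pulls the arrays towards 1 distribution and compresses low signals, so a change in total RNA per cell is invisible and folds of dim genes are understated. RNA came from 10 ng per sample, and 2 arrays per group limit the precision. The design text calls the duplicates biological, and no source ties equal replicate numbers across groups.

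Of 72688 rows, 6732 control rows were left out. Of the 65956 features left, 30604 had 1 gene symbol (repeats of a symbol counted once), and 827 symbols were updated through Entrez identifiers. A gene with several probe sets was read from the one with the highest mean. The fit was limma 3.58.1 (lmFit, eBayes) in R 4.3.3, two-sided, with group as the only term, 2 residual degrees of freedom and 2.59 from the prior, and Benjamini-Hochberg adjustment over all features. It was tested on simulated data. Genes and lists were chosen with earlier results of these data known.

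Full statistics were given for genes with an unadjusted p under 0.05 or a difference of at least 0.5 in size, and in any case for Gata1, Klf1, Epor, Alas1, Alas2, Tfrc, Slc40a1, Slc11a2, Fth1 and Hemgn. Of each other pathway list the genes under 0.05, at most the 4 with the smallest p, or else the 1 with the smallest p, were described. Genes named for their distance between replicate numbers were chosen after their values were seen.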

Additional observations from a re-analysis of the deposited data

How the results depend on the processing

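None of the 37 genes passed an adjusted limma p of 0.05 in any of the fits that keep all arrays: with an intensity trend, a robust prior, dim features left out, a second quantile normalization, arrays centred on the median, control rows kept, or the replicate number as a block. Fits with any 1 array left out were read for differences only, since the lone array of a group is assumed to vary like the other group. The lowest adjusted limma p of the 20 genes with full statistics was 0.20 under the 8 alternatives that keep all arrays. It was that of Rhag, which was higher in combo, with the replicate block. Of these alternatives, only second quantile normalization and median centring change the differences, and neither turned a sign of the 20 genes. Taking another probe set changed nothing, since each gene has 1. With a replicate block, 14 of the 37 genes were under an unadjusted limma p of 0.05 (12 lower, 2 higher), against 8.34% of all features. The share of brighter features was not computed for that fit. In the main fit, 4.98% of brighter features passed as lower and 4.57% as higher, against 2.44% and 3.14% of all features. The distances between numbers 1 and 2 correlated over features at 0.33 between combo and vehicle, and at 0.47 over brighter features. With only 2 numbers, this does not show that equal numbers share cells. The median difference was -0.28 after second quantile normalization and -0.35 after centring. With 1 array left out, the count at an unadjusted p under 0.05 ranged from 3 to 9 and the median from -0.69 to 0.0093, and the differences of the genes whose sign turned ranged from -1.20 to 0.59 for Alas2, -1.53 to 0.13 for Slc4a1, -0.58 to 0.12 for Gata1, -1.06 to 0.51 for Klf1, -0.74 to 0.086 for Slc11a2, -1.16 to 0.39 for Slc40a1 and -1.31 to 0.20 for Aqp1. Of the other 13 genes with full statistics, Rhag ranged from 0.32 to 2.16, Gfi1b from -1.69 to -0.32, Epor from -0.96 to -0.16 and Aco1 from 0.27 to 1.01. The cause was not tested.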
